A study of Mus musculus with 12 samples.

Results

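The annexins described here are the genes Anxa1, Anxa2, Anxa3, Anxa4, Anxa5, Anxa6, Anxa7 and Anxa11, which are 8 of the 12 annexin symbols listed in the count files and 8 of 23378 joined genes. The family was chosen on values of these same libraries, because Anxa3 and Anxa1 were lower after enhancer loss, so the differences between genotypes are given below as a description, and counts of calls in those contrasts restate that choice. RNA was sequenced from bone marrow progenitors of C57BL/6 mice. The mutant mice were homozygous for loss of the +42 kb enhancer of Cebpa (Cebpa +42kb enhancer -/-), and the comparison mice were wild type at that site. The 4 groups were enhancer-null CMP, wild-type CMP, enhancer-null LSK and wild-type LSK, with 3 libraries in each. CMP are common myeloid progenitors. LSK are the cells without lineage markers that carry Sca-1 and Kit, and the labels call them hematopoietic stem cells. The enhancer-null libraries carry the replicate numbers 1, 2 and 7 and the wild-type libraries 1, 6 and 8. The labels give no age, treatment or sort gate and do not say whether replicates came from separate animals. Each group held libraries that read as male and as female from their counts, so its replicates did not all come from the same animal. The p-values measure the spread between these libraries, part of which may be technical.

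Annexins bind negatively charged phospholipids, above all phosphatidylserine, when calcium is present. They lie on the cytosolic side of membranes and take part in membrane traffic, granule release and the repair of membrane tears, and some also act outside the cell. In myeloid cells Anxa1 is known as a mediator induced by glucocorticoids that limits inflammation through formyl peptide receptors, and ANXA3 was isolated from human neutrophils as a protein that aggregates granules.

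Total gene counts ran from 6170491 to 49149674 per library, which places the floor of 3 counts between 0.0612 and 0.487 CPM, the count scaled to the library total. Levels are CPM with TMM scaling, which corrects for library composition. Cebpa, the targeted gene, had 0, 0.148 and 0 CPM in enhancer-null CMP libraries 1, 2 and 7, against 17.1, 15.1 and 30.5 CPM in wild-type CMP libraries 1, 6 and 8. In LSK it had 0.0760, 0 and 0.298 CPM in enhancer-null libraries, against 6.43, 8.28 and 2.45 CPM in wild-type libraries. A list of 8 stem cell markers summed to 587.9 to 902.4 CPM in enhancer-null CMP, against 393.7 to 669 CPM in wild-type CMP, and to 1194 to 1295 CPM in enhancer-null LSK, against 1619 to 2036 CPM in wild-type LSK. Those LSK ranges did not overlap, nor did the ranges of mutant CMP and mutant LSK. The largest part of the stem cell sums in CMP was Kit, at a mean of 587 CPM in enhancer-null and 345 CPM in wild-type CMP. Of the 7 stem cell markers tested between genotypes in CMP, 3 had positive and 4 negative log2 fold changes, with a median of −0.37. Of the 8 tested in LSK, 2 had positive and 6 negative ones. A list of 6 granule and progenitor markers summed to 5882 to 6994 CPM in wild-type CMP and to 2317 to 2659 CPM in wild-type LSK. In the mutant the same granule and progenitor list summed to 3334 to 4515 CPM in CMP and to 2992 to 4064 CPM in LSK, which overlap. The largest part of these mutant sums was Mpo, at a mean of 2780 CPM in CMP and 1752 CPM in LSK. Wild-type means of Mpo were 4483 CPM in CMP and 363 CPM in LSK. Between genotypes, log2 fold changes of the 6 genes were positive for 1 and negative for 5 in CMP. In LSK they were positive for 2 and negative for 4. Kit is in both lists.

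Promoter windows were held for 6 of the 8 members and are shown for Anxa1 and Anxa4, whose genotype groups lay farthest apart in CPM among these 6, with letters that fit the C/EBP pattern TTNNGNAA, on either strand, in capitals. A 30-base stretch of the Anxa1 window (chr19:20390796-20390825, minus strand, GRCm38.p6, RefSeq) lies in the first exon of a longer annotated transcript, and 2 stretches of 250 bases lie directly upstream of the RefSeq starts of Anxa4 (chr6:86793585-86793834 and chr6:86775115-86775364, minus strand), the second of them inside an intron.
Anxa1: tccgggagtagTTTTGCAAgacttgtttct
Anxa4, outer start: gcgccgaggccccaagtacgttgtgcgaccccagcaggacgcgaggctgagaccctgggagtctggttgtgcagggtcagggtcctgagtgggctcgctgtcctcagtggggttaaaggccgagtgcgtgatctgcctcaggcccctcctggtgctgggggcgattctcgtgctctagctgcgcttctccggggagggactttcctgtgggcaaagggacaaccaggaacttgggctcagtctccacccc
Anxa4, inner start: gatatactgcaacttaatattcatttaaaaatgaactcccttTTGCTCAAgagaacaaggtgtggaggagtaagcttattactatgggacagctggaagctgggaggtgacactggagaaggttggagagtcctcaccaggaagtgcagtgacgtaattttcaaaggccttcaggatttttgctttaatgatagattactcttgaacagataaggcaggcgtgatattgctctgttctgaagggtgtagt
The pattern occurs in 40.7% of all 32851 windows of 300 bases, and its match in Anxa1 began 143 bases before the start. In Anxa4 the match began 208 bases before the inner start, and the window of the outer start held none. The windows of Anxa2, Anxa5, Anxa7 and Anxa11 held no match to the C/EBP pattern, and no window was held for Anxa3 or Anxa6. Of the other patterns searched on either strand, the ETS letters GAGGAAG, held by 13.6% of windows, were in no window of a member. The RUNX letters TGTGGT, held by 16.8%, were in none either. The letters AGATAA of the erythroid GATA family, held by 11.2%, were in 1 window of a member, that of the inner start of Anxa4. A match is a run of letters and was not tested as a binding site.

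Anxa3 (ENSMUSG00000029484.12, chr5:96793339-96845966, plus strand) had the largest genotype difference among the members. It had 0, 1.08 and 0.0621 CPM in enhancer-null CMP libraries 1, 2 and 7, against 78.4, 64.5 and 114.5 CPM in wild-type CMP libraries 1, 6 and 8. The wild-type libraries held 5380 Anxa3 counts and the enhancer-null ones 23, of which 22 came from replicate 2. In LSK it had 0, 10.6 and 0.576 CPM in enhancer-null libraries 1, 2 and 7, against 13.2, 36.6 and 10.9 CPM in wild-type libraries 1, 6 and 8. The groups did not overlap in either cell type, but in LSK the highest mutant library came within 0.286 CPM of the lowest wild-type one. The counts of 0 in replicate 1 allow up to 0.335 CPM in enhancer-null CMP and up to 0.233 CPM in enhancer-null LSK. The log2 fold change was −7.62 (SE 1.20) in CMP and −2.42 (SE 1.76) in LSK, and in LSK it was −5.97 without enhancer-null replicate 2. The exons of Anxa3 share 112 bases with Gm42603, a predicted transcript on the same strand, so reads there cannot be told apart.

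Anxa1 (ENSMUSG00000024659.15, chr19:20373428-20390944, minus strand), the ligand that formyl peptide receptors bind, was lower in the mutant in both cell types. It had 21.1, 12.2 and 22.7 CPM in enhancer-null CMP, against 139.2, 52.8 and 32.7 CPM in wild-type CMP. LSK levels were 74.1, 37.1 and 78.5 CPM in enhancer-null libraries, against 197.6, 225.2 and 178.7 CPM in wild-type libraries. Neither pair of groups overlapped, and the wild-type CMP libraries were spread over a wider range than any other group. The log2 fold change was −2.01 (SE 0.59) in CMP and −1.63 (SE 0.31) in LSK, and the CMP value was −1.22 without wild-type replicate 1.

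Anxa4 (ENSMUSG00000029994.17, chr6:86736840-86793584, minus strand), a membrane-binding annexin best known from secretory epithelia, went opposite ways in the cell types. It had 79.3, 65.3 and 84.2 CPM in enhancer-null CMP, against 29.1, 24.0 and 15.1 CPM in wild-type CMP. In LSK it had 75.1, 59.6 and 75.7 CPM in enhancer-null libraries, against 99.1, 109.4 and 111.0 CPM in wild-type libraries. All enhancer-null libraries were above all wild-type ones in CMP and below them in LSK. The log2 fold change was 1.74 (SE 0.36) in CMP and −0.57 (SE 0.22) in LSK, and the difference between these, CMP minus LSK, was 2.35 (SE 0.41). The mutant levels lay close together across the cell types, at 76.2 ± 9.81 CPM in CMP and 70.1 ± 9.17 CPM in LSK (SD, n = 3 each).

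**Figure D1:**
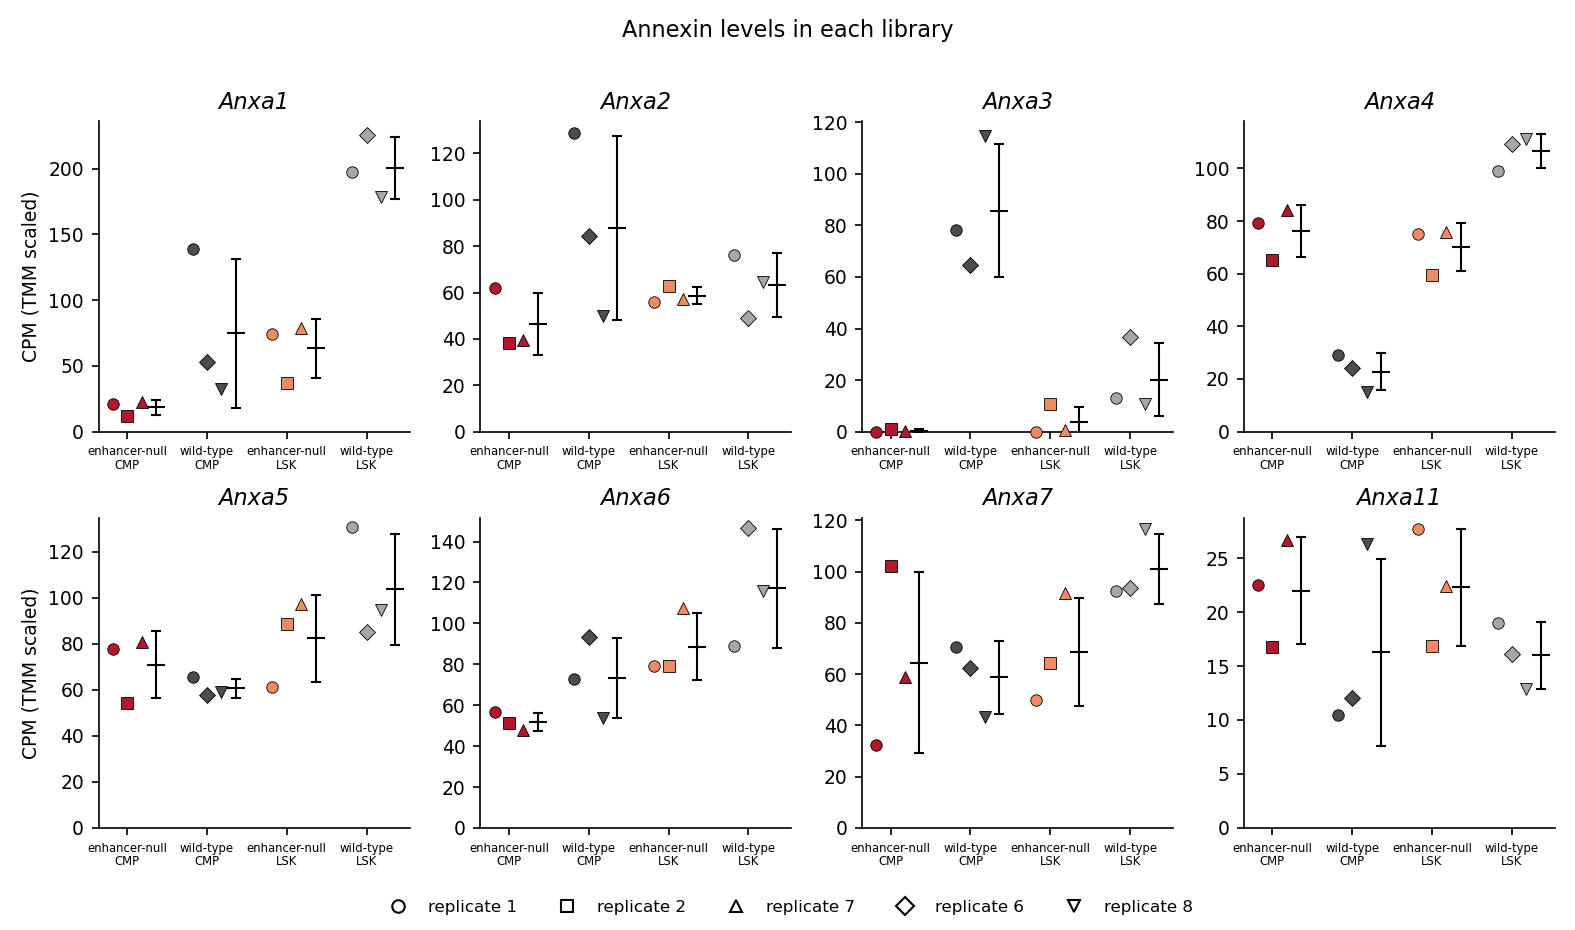
Levels of the 8 annexins in CPM (TMM scaled) on linear axes that start at 0, with 1 point per library, marked by replicate number, and the mean ± SD (n = 3, cut off at 0) at the right of each group. Anxa3 is at or near 0 in enhancer-null CMP and between 64.5 and 114.5 CPM in wild-type CMP, and Anxa4 is lowest in wild-type CMP.

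The remaining members differed less between genotypes. Anxa2 (chr9:69453620-69491795, plus strand), which binds S100a10 and plasminogen at the cell surface, had 62.1, 38.2 and 39.5 CPM in enhancer-null CMP, against 129.0, 84.2 and 50.1 CPM in wild-type CMP, and those groups overlapped. In LSK it averaged 58.7 ± 3.72 CPM in enhancer-null libraries and 63.3 ± 13.7 CPM in wild-type libraries (SD, n = 3 each). Its log2 fold change was −0.92 (SE 0.41) in CMP and −0.08 (SE 0.28) in LSK. Anxa6 (chr11:54979108-55033445, minus strand), which carries a duplicated annexin core and recruits the Ras regulator Rasa1, averaged 51.9 ± 4.42 CPM in enhancer-null CMP and 73.3 ± 19.8 CPM in wild-type CMP. Its LSK means were 88.6 ± 16.4 CPM in enhancer-null and 117.1 ± 29.0 CPM in wild-type libraries, and the log2 fold changes were −0.50 and −0.37, with overlap in both cell types.

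Anxa5 (chr3:36448923-36475894, minus strand), the phosphatidylserine binder used to stain dying cells, averaged 71.0 ± 14.7 CPM in enhancer-null CMP and 60.7 ± 4.09 CPM in wild-type CMP. In LSK the means were 82.3 ± 18.8 CPM in enhancer-null and 103.7 ± 24.1 CPM in wild-type libraries. The log2 fold changes of 0.22 (SE 0.28) and −0.30 (SE 0.28) were close to the size of their errors. Anxa7 (chr14:20455260-20480133, minus strand), first isolated for its role in granule fusion, had 32.3, 102.2 and 58.8 CPM in enhancer-null CMP, against 70.7, 62.3 and 43.1 CPM in wild-type CMP. In LSK it had 50.0, 64.2 and 91.7 CPM in enhancer-null libraries, against 92.5, 93.4 and 116.7 CPM in wild-type libraries, with a gap of 0.836 CPM between the groups. Anxa11 (chr14:25842156-25886804, plus strand), which tethers RNA granules to lysosomes, averaged 22.0 ± 4.95 CPM in enhancer-null CMP and 16.3 ± 8.70 CPM in wild-type CMP, and 22.3 ± 5.43 CPM in enhancer-null LSK and 16.0 ± 3.08 CPM in wild-type LSK, and the groups overlapped in both cell types. Exons of Anxa2, Anxa4 and Anxa11 share 98, 75 and 113 bases with the opposite-strand genes Gm16144, Gm44036 and Anxa11os, and no strand-marking step is named in the labels, so reads in those stretches cannot be told apart.

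Across all genes, edgeR's quasi-likelihood test, adjusted by Benjamini-Hochberg at 0.05, called 0.58% of 11719 genes between the genotypes in CMP, 55 higher and 13 lower in the mutant. These contrasts are the ones on which the family was chosen, so the members' counts in them restate the choice and are no test. Of the 8 members 1 was called, Anxa3, at an adjusted p of 0.0498, just under the threshold. Over 12 alternatives Anxa3 was called in 6, and its adjusted p reached 0.249. No member was called without enhancer-null CMP replicate 7 or without any of wild-type CMP replicates 1, 6 and 8. The same held with sex, as read from the counts, as a covariate. The groups of 3 members did not overlap in CMP, where 23.6% of genes tested did not. Cebpa, the targeted gene, was itself not called in CMP by the same test (log2 fold change −8.34, SE 1.60, adjusted p 0.0822). A gene that is not called may therefore still differ. In LSK 0.103% of 11617 genes were called and none of the members, of which 1 was called by DESeq2. An unadjusted p under 0.05 was found there for 2 members and for 918 of all genes tested. The groups of 4 members did not overlap in LSK, against 19.1% of genes tested. The difference between cell types in the genotype difference was called for 0.292% of 12683 genes and for 1 member, Anxa4. The median log2 fold change of the members was −0.18 in CMP and −0.45 in LSK, and over all genes tested it was −0.02 in CMP and −0.01 in LSK.

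**Figure D2:**
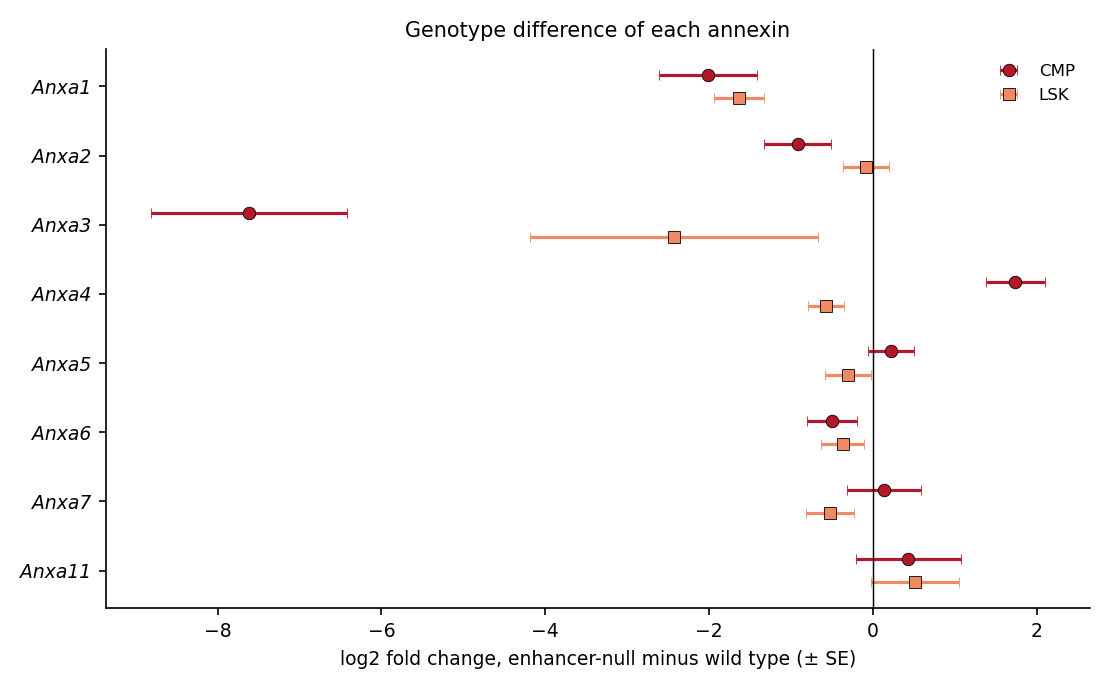
Log2 fold change of each annexin, enhancer-null minus wild type, in CMP (circles) and LSK (squares), with bars of 1 SE from edgeR's fit. Anxa3 in CMP lies farthest from 0 at −7.62, Anxa1 is negative in both cell types, and Anxa4 is positive in CMP and negative in LSK.

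Levels of different annexins were compared after division by exon length (CPM per kb). In enhancer-null CMP Anxa5 was the highest at 39.9 ± 8.26 CPM per kb, clear of Anxa6 at 17.7 ± 1.51, and Anxa3 was the last at 0.105 ± 0.167 CPM per kb (SD, n = 3). In wild-type CMP the levels of Anxa5 (34.2), Anxa1 (25.7), Anxa6 (25.0), Anxa3 (23.5) and Anxa2 (23.5 CPM per kb) each overlapped with the next in order. Below them Anxa2 and Anxa7 (9.80 CPM per kb) were separate, as were Anxa7 and Anxa4 (4.89 CPM per kb). In wild-type LSK Anxa1 came first at 68.9 ± 8.04 CPM per kb and overlapped with Anxa5 at 58.3 ± 13.5, while in enhancer-null LSK Anxa1 was the third at 21.7 ± 7.80, behind Anxa5 at 46.3 ± 10.6 and Anxa6 at 30.2 ± 5.59 CPM per kb.

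The members' summed level was 114.9, 97.9 and 114.6 CPM per kb in enhancer-null CMP, against 186.2, 141.1 and 124.5 CPM per kb in wild-type CMP. In LSK the sum was 133.1, 136.9 and 170.9 CPM per kb in enhancer-null libraries, against 237.3, 241.6 and 221.1 CPM per kb in wild-type libraries. The sums of the genotypes did not overlap in either cell type, but they include Anxa1 and Anxa3, for which the family was chosen. Without these genes the sum was 107.6, 93.4 and 106.8 in enhancer-null CMP, against 116.9, 105.3 and 81.8 CPM per kb in wild-type CMP, which overlap, and 107.6, 121.3 and 143.8 in enhancer-null LSK, against 165.8, 154.2 and 156.7 CPM per kb in wild-type LSK, which do not. Anxa1 made up 5.79% ± 1.34 of the sum in enhancer-null CMP and 15.8% ± 8.73 in wild-type CMP, and 14.7% ± 4.99 in enhancer-null LSK and 29.5% ± 2.26 in wild-type LSK (SD, n = 3 each). Anxa4 made up 15.0% ± 0.740 in enhancer-null CMP and 3.21% ± 0.541 in wild-type CMP. Anxa3 made up 0.106% ± 0.172 in enhancer-null CMP and 16.4% ± 7.64 in wild-type CMP. Anxa6 took similar shares, 16.3% ± 1.91 in enhancer-null CMP and 16.9% ± 4.95 in wild-type CMP.

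**Figure D3:**
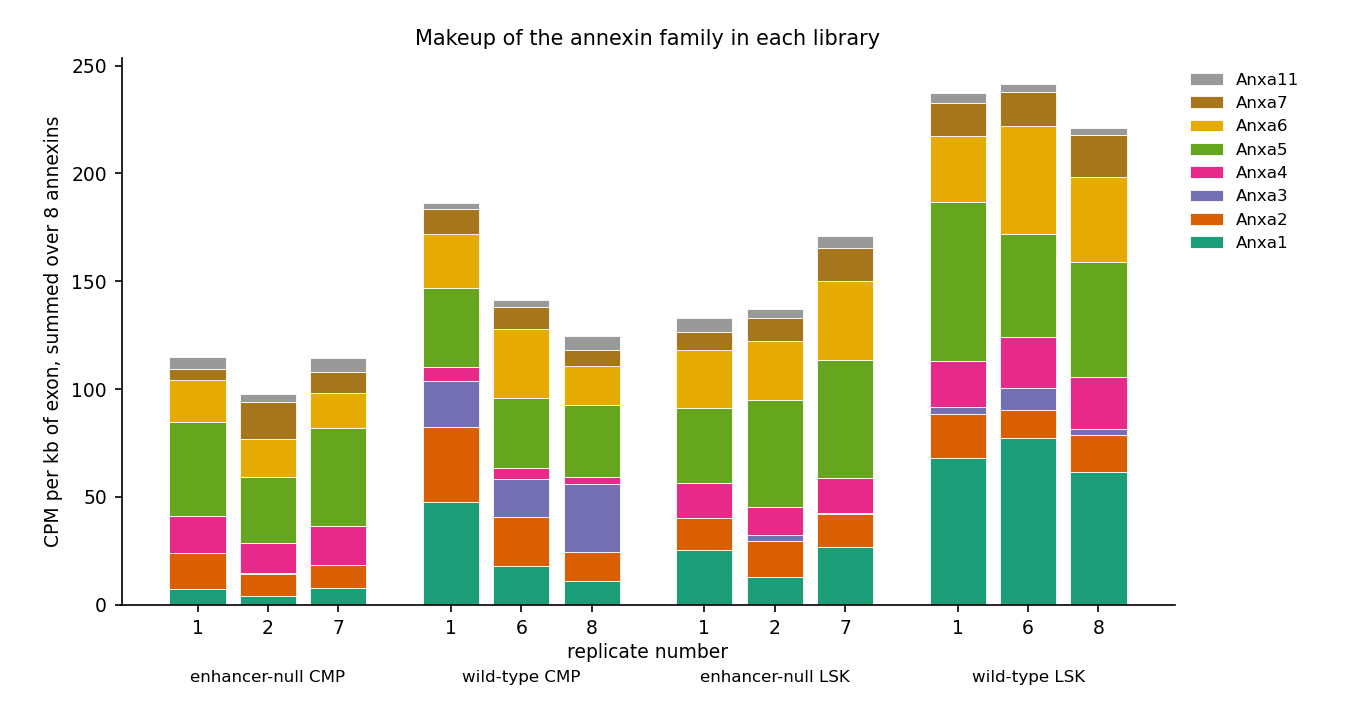
Summed level of the 8 annexins in each library (1 bar per library, CPM per kb of exon, axis from 0), split by member. The bars of wild-type LSK are the tallest, at 221.1 to 241.6 CPM per kb, the Anxa3 part is at most 0.304% of a bar in enhancer-null CMP, and the Anxa4 part is thin in wild-type CMP.

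The comparison of CMP with LSK within a genotype was not used to choose the family, although it shares every library with the contrasts that were. It asks how the annexins differ between myeloid progenitors and the less mature LSK compartment. In wild type, Anxa4 fell to 22.7 ± 7.08 CPM in CMP, against 106.5 ± 6.48 CPM in LSK (SD, n = 3 each), a log2 fold change of −2.18 (SE 0.32) with an adjusted p of 0.0166 in edgeR's quasi-likelihood test. It was lower in 3 of 3 CMP libraries than in any LSK library. Its adjusted p was 0.0790 without wild-type CMP replicate 6, 0.0583 without wild-type CMP replicate 8 and 0.0513 without wild-type LSK replicate 1, so the call depends on each of these libraries. With the replicate number as a block it was 0.0598, which also ends the call, and it lay between 2.36e-08 and 0.0790 over 12 alternatives.

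Anxa4 was the 1 of 8 members called in wild type, where 4.22% of 12026 genes were called, 259 higher and 248 lower in CMP. The groups of 5 members did not overlap, against 33.4% of genes tested. Anxa3 averaged 85.8 ± 25.8 CPM in wild-type CMP and 20.2 ± 14.2 CPM in wild-type LSK, with a log2 fold change of 2.12 (SE 0.53) that missed the threshold at an adjusted p of 0.0729. Without wild-type LSK replicate 6, which had the highest Anxa3 of its group, the log2 fold change was 2.88 with an adjusted p of 0.0049, and its adjusted p lay between 0.0027 and 0.538 over 12 alternatives. Anxa1 averaged 74.9 ± 56.6 CPM in wild-type CMP and 200.5 ± 23.4 CPM in wild-type LSK, with a log2 fold change of −1.37 (SE 0.50) and an adjusted p of 0.177. Without wild-type CMP replicate 1 the Anxa1 log2 fold change was −2.23 with an adjusted p of 0.0416, and its adjusted p lay between 0.0273 and 0.403 over 12 alternatives. Anxa5 and Anxa7 were lower in each CMP library than in any LSK library, with log2 fold changes of −0.73 (adjusted p 0.145) and −0.74 (adjusted p 0.176), and did not pass. Anxa2, Anxa6 and Anxa11 overlapped between the groups and did not pass either.

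In the mutant, 0 of 7 annexins tested were called between CMP and LSK by edgeR's quasi-likelihood test, and 0% of all 11263 genes tested, although 779 genes and 2 annexins had an unadjusted p under 0.05. DESeq2 called 205 genes and 1 annexin, Anxa1. Anxa3 was too low to be tested. Anxa1 had a log2 fold change of −1.79 (SE 0.47, adjusted p 0.445) and Anxa6 of −0.80 (SE 0.28, adjusted p 0.612), and these were the 2 members whose groups did not overlap, against 16.9% of genes tested. Anxa4 had a log2 fold change of 0.09 (SE 0.27, adjusted p 0.985) in the mutant. The median log2 fold change between CMP and LSK was −0.24 over the 7 annexins tested in the mutant and −0.68 over the 8 in wild type, and −0.01 over all genes in each genotype.

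**Figure D4:**
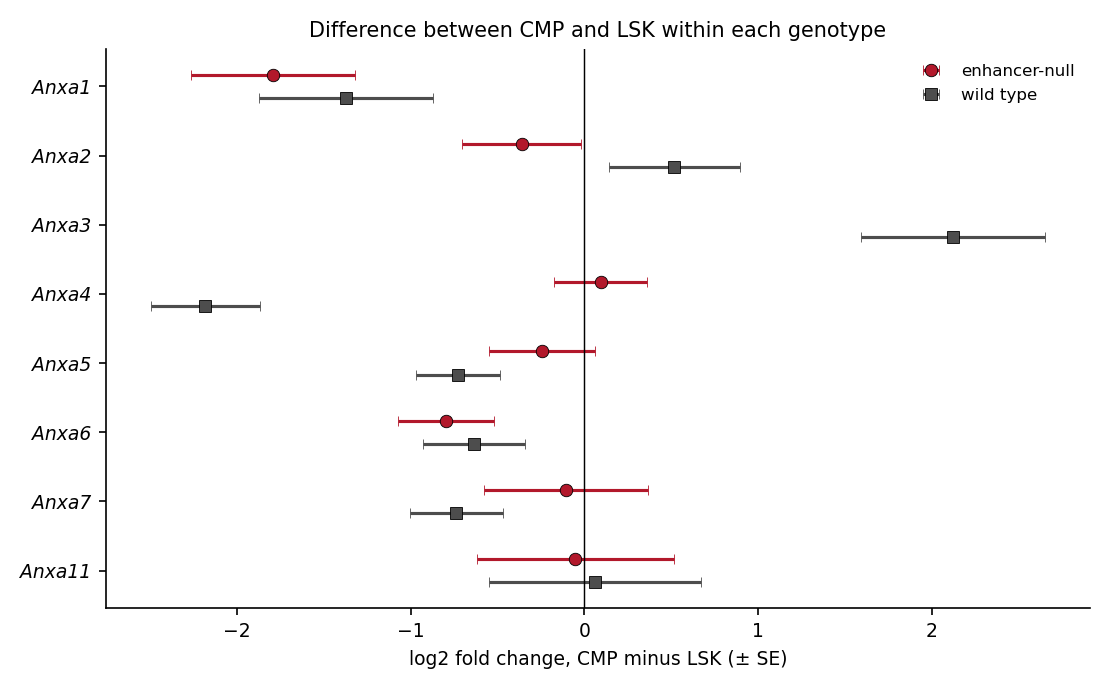
Log2 fold change of each annexin, CMP minus LSK, in enhancer-null (circles) and wild-type cells (squares), with bars of 1 SE from edgeR's fit. Anxa4 is at 0.09 in the mutant and −2.18 in wild type, Anxa1 is negative in both, and Anxa3 has no mutant value because its counts there were too low to be tested.

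Of the other annexin symbols, Anxa9, an annexin that lacks the usual calcium sites, was the only one above the floor in most libraries. It had 24.6, 26.6 and 14.2 CPM in enhancer-null CMP, against 11.4, 17.7 and 17.1 CPM in wild-type CMP. The LSK levels were 45.5, 14.4 and 18.0 CPM in enhancer-null libraries, against 25.8, 40.2 and 18.6 CPM in wild-type libraries. The groups of Anxa9 overlapped between genotypes in both cell types, and its log2 fold change of 0.50 in CMP had an adjusted p of 0.829. Anxa8 and Anxa13 had 0 counts in all 12 libraries, and Anxa10 had 2 counts in enhancer-null CMP and 4 in wild-type CMP.

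The partners of annexins were read from a list of 14 genes. In CMP 0 of the 11 tested were called between genotypes by edgeR's quasi-likelihood test, where 0.58% of all genes were. An unadjusted p under 0.05 was found for 5 of the partners, and for 1476 of 11719 genes tested. DESeq2 called 2 of the partners, and its counts over all genes are given in the last section. Log2 fold changes were positive for 9 of 11, with a median of 0.59 against −0.02 over all genes, of which 51.2% were negative. S100a10, the S100 protein that pairs with Anxa2, had 196.3, 111.5 and 130.0 CPM in enhancer-null CMP, against 91.8, 56.6 and 73.8 CPM in wild-type CMP. S100a11, a partner of Anxa1, had 162.9, 110.7 and 98.6 CPM in enhancer-null CMP, against 74.5, 53.1 and 63.7 CPM in wild-type CMP. Neither gene's groups overlapped, and their log2 fold changes of 0.98 and 0.96 had adjusted p of 0.253 and 0.237. The smallest p was that of Pla2g4a, the cytosolic phospholipase that Anxa1 inhibits, at 114.0, 94.4 and 110.9 CPM in enhancer-null CMP, against 43.5, 41.4 and 27.4 CPM in wild-type CMP, with a log2 fold change of 1.50 (SE 0.29, adjusted p 0.0827). S100a6, a partner of Anxa11, overlapped between genotypes in CMP, with a log2 fold change of −0.63 and an adjusted p of 0.881.

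In LSK 0 of 11 partners were called, against 0.103% of all genes, and the median log2 fold change was 0.25 against −0.01 over all genes. An unadjusted p under 0.05 was found for 1 partner, and for 918 of 11617 genes tested. DESeq2 called 0 of the partners as well. S100a10 had 142.9, 134.0 and 127.2 CPM in enhancer-null LSK, against 115.4, 97.9 and 107.2 CPM in wild-type LSK, with a log2 fold change of 0.37 and an adjusted p of 0.684. S100a11 and S100a6 had log2 fold changes of 0.25 and 0.43 there, with adjusted p of 0.803 and 0.905. The smallest p in LSK was that of S100a4, a small calcium-binding protein, at 14.9, 13.1 and 8.68 CPM in enhancer-null libraries, against 3.79, 1.68 and 0.878 CPM in wild-type libraries, with a log2 fold change of 2.56 (SE 1.09, adjusted p 0.626). The receptor genes Fpr1 and Fpr2 were too low to be tested between genotypes, and had counts above 0 in wild-type CMP replicates 1 and 6 and wild-type LSK replicate 1, at 0.671 to 1.62 CPM for Fpr1 and 1.18 to 5.25 CPM for Fpr2.

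Genes that move phosphatidylserine across the membrane, and so expose or hide the lipid that annexins bind, were read from a list of 9, all tested. None was called in CMP or LSK by edgeR's quasi-likelihood test, where 0.58% and 0.103% of all genes were. An unadjusted p under 0.05 was found for 3 in CMP and 0 in LSK, against 1476 of 11719 and 918 of 11617 genes tested. DESeq2 called 1 in CMP and 0 in LSK. The medians were −0.12 in CMP and 0.05 in LSK. The smallest p in both cell types was that of Plscr1, a phospholipid scramblase, at 98.0, 126.5 and 111.8 CPM in enhancer-null CMP, against 41.3, 35.1 and 56.9 CPM in wild-type CMP. Its log2 fold change was 1.33 (SE 0.29, adjusted p 0.105) in CMP and 0.54 (SE 0.24, adjusted p 0.643) in LSK.

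Of 10 genes of plasma membrane repair, 9 were tested in CMP and 8 in LSK. None was called by edgeR's quasi-likelihood test, where 0.58% of all genes in CMP and 0.103% in LSK were. An unadjusted p under 0.05 was found for 2 in each cell type, against 1476 of 11719 genes in CMP and 918 of 11617 in LSK. DESeq2 called 2 in CMP and 1 in LSK. The medians were 0.09 in CMP and 0.18 in LSK, and the CMP median was also 0.09 with Myof, a ferlin at 0 counts in all enhancer-null CMP libraries, set to its limit of 3 counts over the group. Capn1, a calpain that clears cytoskeleton at a tear, had the smallest p in CMP, at 69.0, 51.3 and 82.1 CPM in enhancer-null libraries, against 28.1, 32.6 and 25.3 CPM in wild-type libraries, with a log2 fold change of 1.23 (SE 0.33, adjusted p 0.185). Pdcd6ip, the ESCRT adaptor ALIX, had the smallest p in LSK, at 379.8, 331.8 and 294.5 CPM in enhancer-null libraries, against 198.6, 162.2 and 182.3 CPM in wild-type libraries, with a log2 fold change of 0.92 (SE 0.17, adjusted p 0.139).

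Markers of some other blood cells moved with the groups. Erythroid marker sums overlapped between genotypes in CMP, at 617.5 to 2289 CPM in the mutant against 1488 to 1639 CPM in wild type. They overlapped in LSK too, at 42.7 to 107.3 CPM in the mutant against 3.93 to 86.3 CPM in wild type. Sums of B cell markers and of stromal and endothelial markers also overlapped between genotypes in both cell types. In bulk RNA, fewer cells of a type and less RNA per cell cannot be told apart. Late neutrophil markers (10 of 11 in the files, each with counts in every group) summed to 5.47, 30.0 and 7.01 CPM in enhancer-null CMP, against 2117, 262.2 and 28.2 CPM in wild-type CMP, where replicate 1 also had the highest Anxa1 and Anxa2 and replicate 8 the lowest Anxa1 and Anxa2. Anxa3 was highest in wild-type CMP replicate 8, whose neutrophil marker sum was the lowest of its group and lay within the range of the mutant, and was lowest in replicate 6. In LSK the same sum was 9.12, 28.2 and 19.1 CPM in enhancer-null libraries, against 1350, 269.5 and 126.3 CPM in wild-type libraries. Neither Anxa1 nor Anxa2 ran in the order of that sum in wild-type LSK. Anxa1 was highest there in replicate 6 and lowest in replicate 8, and Anxa2 was highest in replicate 1 and lowest in replicate 6.

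Monocyte and macrophage markers summed to 46.5 to 217.4 CPM in enhancer-null CMP, with Adgre1 at 0, against 958.6 to 1095 CPM in wild-type CMP. In LSK, where Anxa1 and Anxa3 were also lower in the mutant, that sum was 102.8 to 150.3 CPM in enhancer-null and 57.1 to 67.2 CPM in wild-type libraries. The LSK difference was carried by Csf1r, at a mean of 47.5 CPM in enhancer-null and 7.06 CPM in wild-type libraries, and Ccr2, at 46.6 CPM in enhancer-null and 5.57 CPM in wild-type libraries, while log2 fold changes were positive for 3 and negative for 4 of the 7 markers tested there, with a median of −0.11. Mast cell and basophil markers summed to 1409 to 1782 CPM in enhancer-null CMP, with Prss34 at 0, against 58.1 to 259.6 CPM in wild-type CMP. That sum was carried by Cpa3, at a mean of 1118 CPM in enhancer-null and 41.7 CPM in wild-type CMP, and Gzmb, at 467.9 CPM in enhancer-null and 0.802 CPM in wild-type CMP. Of the 6 mast cell and basophil markers tested in CMP 3 had positive log2 fold changes and 3 negative ones, Hdc (−4.02), Mcpt8 (−1.48) and Ms4a2 (−0.81). In LSK they summed to 316.9 to 675.1 CPM in enhancer-null and 7.72 to 19.8 CPM in wild-type libraries. Anxa4 was higher in the mutant in CMP and lower in LSK, while the mast cell and basophil sum was higher in the mutant in both. The sum of 7 megakaryocyte markers lay in the same order as Anxa4, at 144.2 to 260.7 CPM in enhancer-null CMP, against 78.3 to 121.6 CPM in wild-type CMP, and at 173.8 to 216.8 CPM in enhancer-null LSK, against 299.1 to 415.6 CPM in wild-type LSK. In CMP its largest part in the mutant was Itga2b, at a mean of 151.2 CPM in enhancer-null and 25.9 CPM in wild-type CMP. T and NK cell markers summed to 199.2 to 325.7 CPM in enhancer-null CMP, against 63.8 to 133.5 CPM in wild-type CMP, and to 255.3 to 297.3 CPM in enhancer-null LSK, against 78.5 to 164.1 CPM in wild-type LSK. Nearly all of that sum was Nkg7, with Cd3e at 0 in enhancer-null CMP, Cd3d at 0 in enhancer-null LSK and Ncr1 at 0 in wild-type LSK. The part of these cells in the annexin values was not tested.

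Genes whose levels were most like those of Anxa3 and Anxa1 over the 12 libraries were found by the root mean square (RMS) difference of centred log2(CPM + 0.5) values among 10129 genes. Among the 5 nearest to Anxa3 were Met (RMS 1.14), the hepatocyte growth factor receptor, Cebpa (1.24), Hk3 (1.47), a hexokinase, and Kif14 (1.52), a mitotic kinesin, where the median gene had 2.97. Met had 0.116, 2.12 and 0 CPM in enhancer-null CMP, against 46.5, 33.3 and 49.0 CPM in wild-type CMP. Its LSK levels were 0.0760, 4.16 and 1.69 CPM in enhancer-null libraries, against 2.62, 9.12 and 1.13 CPM in wild-type libraries. Like Anxa3, it was highest in replicate 2 among the mutant libraries of each cell type, and its LSK groups overlapped. Hk3 was also among the 5 nearest when group means replaced libraries, and Met, Cebpa and Kif14 were not.

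For Anxa1 the nearest genes were Ccl3 (RMS 0.578), a chemokine, Ifitm3 (0.628), an interferon-induced membrane protein, Casc4 (0.647), Lyz1 (0.666), a lysozyme, and Lmo2 (0.668), a transcriptional cofactor of early blood cells, where the median gene had 1.50. Lmo2 averaged 213 CPM in enhancer-null CMP and 390 CPM in wild-type CMP, and 351 CPM in enhancer-null LSK and 1077 CPM in wild-type LSK. None of the 5 was among the nearest when group means replaced libraries, so this order depends on the measure. Likeness was taken over the same libraries that chose the family and is a description.

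**Figure D5:**
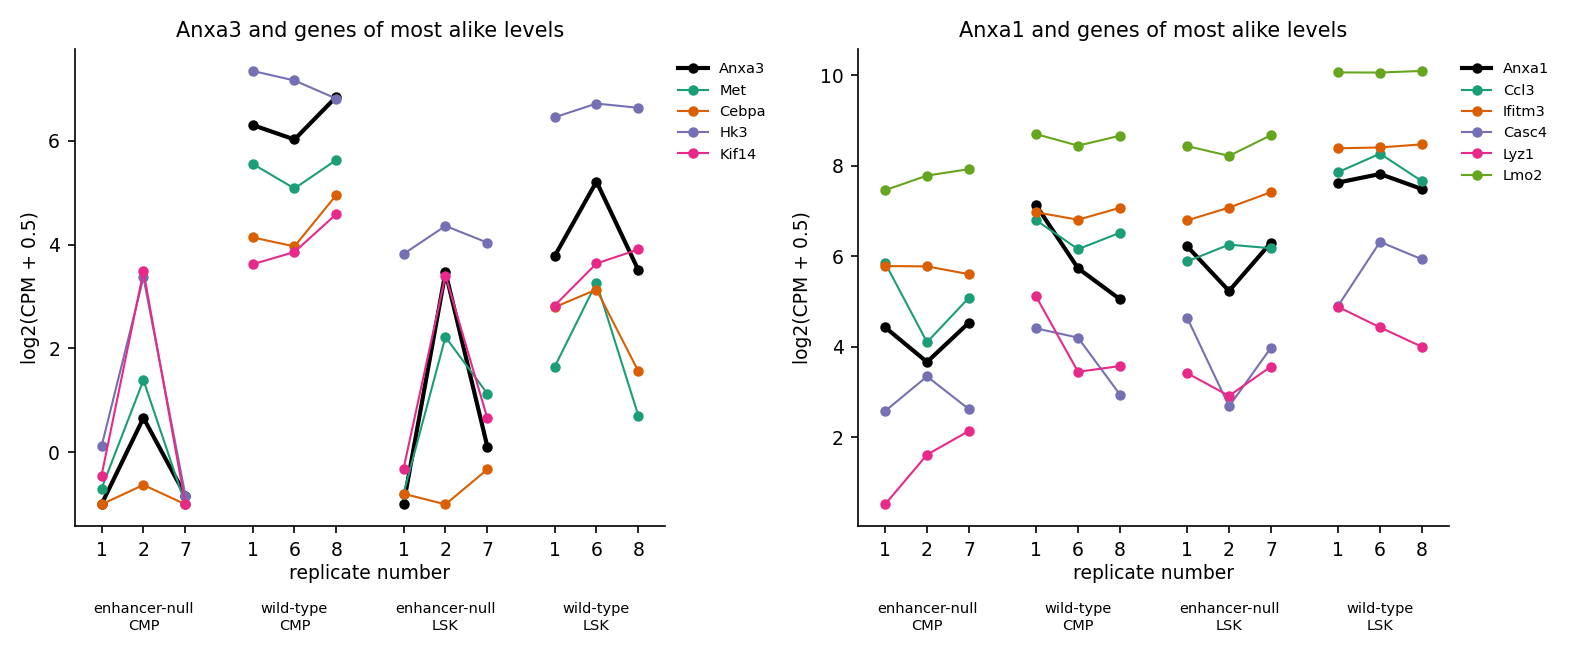
Levels of Anxa3 (left) and Anxa1 (right), as log2(CPM + 0.5), with genes of most alike levels (4 shown for Anxa3, 5 for Anxa1) in each of the 12 libraries, and lines that join the libraries of a group only to guide the eye. Anxa3 and Met are both highest in replicate 2 among the enhancer-null libraries and high in all wild-type CMP libraries.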

How the data were processed

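Per the labels' protocols, RNA was isolated with a carrier, amplified as cDNA by a low-input kit and read from both ends over 75 bp. The authors deposited raw counts of reads by gene symbol in 1 file for each library. The submitters' processing notes name mm10, HTSeq, Bowtie, TopHat and TopHat2 2.0.4. Annotation and strand setting were not given in the sources used here. Rows that name no gene held 37.2% to 46.9% of counts and were left out. Wild-type CMP replicate 6 came with 23456 symbols, unlike the 24420 elsewhere. The files were joined on 22779 identical symbols and 599 that the RefSeq gene table links as older names, and 0.0805% to 0.317% of gene counts were not joined. Replicates of a group differed by more than counting noise (chi-square per degree of freedom 43.0 to 183).

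The counts were tested by the robust quasi-likelihood test of edgeR 4.0.16 in R 4.3.3 (TMM, minimum count 10) with Benjamini-Hochberg adjustment at 0.05 over all genes tested, on the groups compared, or on all 12 libraries for the difference between cell types. An SE is the log2 fold change divided by the root of F. The steps were tested on simulated data. Alternatives were RLE scaling, DESeq2 1.42.0, no filter, a mean of at least 5 CPM, 1 fit over 12 libraries, sex as a covariate, the replicate number as a block, and leaving out each library. Sex is not in the labels and was read from the counts. Mutant libraries 1 and 2 and wild-type library 1 read as male and the others as female, so sex is unevenly split between genotypes. Exon lengths and positions are from GENCODE M21 (GRCm38), and promoter windows from RefSeq (GRCm38.p6). Intervals and the floor of 3 counts cover counting error only. Amplified reads carry no molecular identifiers.

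The members, lists and tests were chosen with earlier results of these data known. Named genes are all annexins, Cebpa, from each list the members past the threshold or the 1 with the smallest p, S100a10, S100a11, S100a6, Fpr1, Fpr2, and the 5 genes most like Anxa3 and Anxa1, 1 of which is not reported here. Myof and the markers at 0 were added after their values were seen.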

Additional observations from a re-analysis of the deposited data

Results flagged for a closer look

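The genotype difference of Anxa4 was 1.74 on the log2 scale in CMP and −0.57 in LSK. The difference between these, CMP minus LSK, was 2.35 (SE 0.41) and passed the threshold of 0.05 over all genes tested in edgeR's quasi-likelihood test, with every mutant library above every wild-type library in CMP and below every one in LSK. It is built from the contrasts on which the family was chosen, and is therefore a description. The call was lost with sex as a covariate, with the replicate number as a block and in 11 of the 12 fits that left out 1 library each, and was kept without enhancer-null CMP replicate 2.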

How the results depend on the processing

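Of the annexins, 1 was called between genotypes in CMP, against 3 with DESeq2, 2 with no filter on low counts, 0 with sex as a covariate and 0 to 1 when 1 library was left out. In LSK 0 were called, against 1 with DESeq2. For the difference between cell types 1 was called, against 0 with sex as a covariate and 0 to 1 when 1 library was left out. Between CMP and LSK 1 was called in wild type, against 3 with DESeq2, 2 with no filter and 0 to 2 when 1 library was left out, and 0 in the mutant, against 1 with DESeq2. Of the partner genes in CMP 2 were called with DESeq2, 2 with no filter and 1 in the fit over 12 libraries, of the phosphatidylserine genes 1 with DESeq2 and 1 in the fit over 12 libraries, and of the repair genes 2 with DESeq2 and 1 in the fit over 12 libraries, against 0 each. In LSK DESeq2 called 1 repair gene, against 0.

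Over all genes, DESeq2 called 628 between genotypes in CMP (68 in edgeR), 269 in LSK (12), 186 for the difference between cell types (37), 1605 between CMP and LSK in wild type (507) and 205 in the mutant (0). With no filter these counts were 269, 39, 68, 717 and 9. In the fit over 12 libraries they were 232 in CMP, 26 in LSK and 37 for CMP against LSK in the mutant, and with sex as a covariate 31 in CMP and 3 in LSK. Leaving out 1 library gave 7 to 91 calls between genotypes in CMP, 1 to 21 in LSK, 12 to 125 for the difference between cell types and 54 to 877 between CMP and LSK in wild type.

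Small log2 fold changes changed sign. Anxa11 between wild-type CMP and LSK ranged from −0.46 to 0.26 when 1 library was left out, and in the mutant Anxa7 ranged from −0.63 to 0.22 and Anxa11 from −0.21 to 0.13. Between genotypes, Anxa7 in CMP ranged from −0.37 to 0.43 and Anxa2 in LSK from −0.26 to 0.08. For Anxa1, Anxa3 and Anxa4 the genotype differences kept their sign in all 12 alternatives in each cell type. Deviations of same-numbered CMP and LSK libraries from their group means were nearly uncorrelated (correlations from −0.01 to 0.05). With so few libraries this cannot exclude that the numbers are pairs. Same-numbered libraries read as the same sex, and their neutrophil marker sums ran in the same order in both cell types of each genotype. The main fits did not take the numbers as pairs. With the replicate number as a block (replicate block), 0 annexins were called in wild type and 0 for the difference between cell types, 132 genes in wild type and 7 for the difference were called over all genes, Anxa4 had an adjusted p of 0.0598 in wild type, and Anxa11 had a log2 fold change of −0.0539 there. The cause of these shifts was not tested.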
